A study of Gallus gallus with 4 samples.

Results

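Semaphorins, plexins, ephrins, Eph receptors, Slits, Robo receptors, netrins and UNC5 receptors were read out in the area vasculosa of chick embryos, the blood-forming and vessel-forming ring of the yolk sac that surrounds the embryo. Members were taken by gene name, as every row starting with SEMA, PLXN, ROBO, UNC5, EPHA, EPHB, EFNA or EFNB, plus SLIT1, SLIT2, SLIT3, NTN1, NTN3 and NTN4. That rule found 53 of 17108 rows. One of them, UNC50, shares letters with the UNC5 receptors but encodes an unrelated Golgi membrane protein, and it was set aside with 22.3, 28.2, 31.9 and 25.8 FPKM. The other 52 comprise 24 ligand genes and 28 receptor genes. Of these, 43 reached 1 FPKM in at least 1 library (FPKM is the number of sequenced fragments scaled to transcript length and to the mapped fragments of the library), 21 of them ligands and 22 receptors, against 11773 of 17012 genes in the whole table. SLIT1 and EPHB4 were not analysed here.

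RNA was taken from area vasculosa dissected at HH10, HH11, HH12 or HH13, successive steps of the Hamburger-Hamilton staging of the chick, during which the first vessels form and the heart starts to beat. Each stage has 1 library, and the labels name no treatment, genotype, strain or number of embryos. Groups of 4 values below always stand in the order HH10, HH11, HH12, HH13. Because each stage has a single library, a difference between stages has no replicate check, and no value carries an error. Every difference is a change in log2(FPKM + 1). The added 1 shrinks the differences of genes with low values, and 2-fold means at least 1 unit on that scale.

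These families steer cells and growing processes by contact or by secreted cues. Semaphorins signal through plexins, the secreted class 3 semaphorins usually with a neuropilin as co-receptor. Ephrins are bound to the membrane and act on Eph receptor tyrosine kinases of a neighbouring cell, which can in turn pass a signal back into the ephrin cell. Slits bind Robo receptors, and netrins bind UNC5 receptors, DCC and neogenin. In vessels of mouse and zebrafish the same proteins separate arteries from veins and restrain or permit sprouting.

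Low values in the table moved in whole steps, which gave the relative worth of 1 fragment. One fragment was worth 0.686, 0.911 and 0.854 times as much FPKM in HH11, HH12 and HH13 as in HH10. If FPKM was divided by mapped fragments alone, those libraries were 1.46, 1.10 and 1.17 times as deep. Whether it was is uncertain, as median-of-ratios scaling moved the median log2 differences by 0.0037 or less. The absolute depth is unknown. The HH10 library differed from the later ones in its chromosome Z genes, whose median log2 difference between HH13 and HH10 was -0.47 over 536 genes, against 0.02 over 10611 genes on numbered chromosomes. Markers of the labelled tissue were present. Apart from members, all 17 endothelial markers measured reached 1 FPKM in at least 1 library. So did all 10 of the mural and mesoderm list and all 13 of the yolk sac endoderm list. Of lists for other tissues, all 9 cardiac, 10 of 11 ectoderm and epithelium, 8 of 11 neural and 4 of 9 somite markers also did. Reaching 1 FPKM therefore does not set the labelled tissue apart from embryonic tissue next to it. ROBO4, a member and the Robo of endothelium, stayed under 1 FPKM. Summed endothelial markers had 134, 65.3, 106 and 298 FPKM, and the mural and mesoderm list had 165, 114, 193 and 734 FPKM. In bulk tissue, fewer cells of a type and less RNA per cell cannot be told apart.

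By level, the families were uneven. EFNB1, a transmembrane ephrin, was the highest member, at 102, 73.0, 65.0 and 109 FPKM, which placed its mean at percentile 90.1 of all genes tested. PLXNA1, a receptor for class 3 and class 6 semaphorins, followed with 48.0, 60.7, 32.2 and 29.8 FPKM. EPHB3 and UNC5B came next, with nearly equal means. Netrins were the lowest family, with a summed level of 3.16, 1.66, 0.591 and 0.536 FPKM. Summed levels were 137, 137, 107 and 161 FPKM for 16 semaphorins, 77.3, 87.8, 55.1 and 72.2 FPKM for 7 plexins and 102, 101, 83.9 and 113 FPKM for 13 Eph receptors. FPKM is scaled to transcript length, so these levels can be set side by side between genes.

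**Figure D1:**
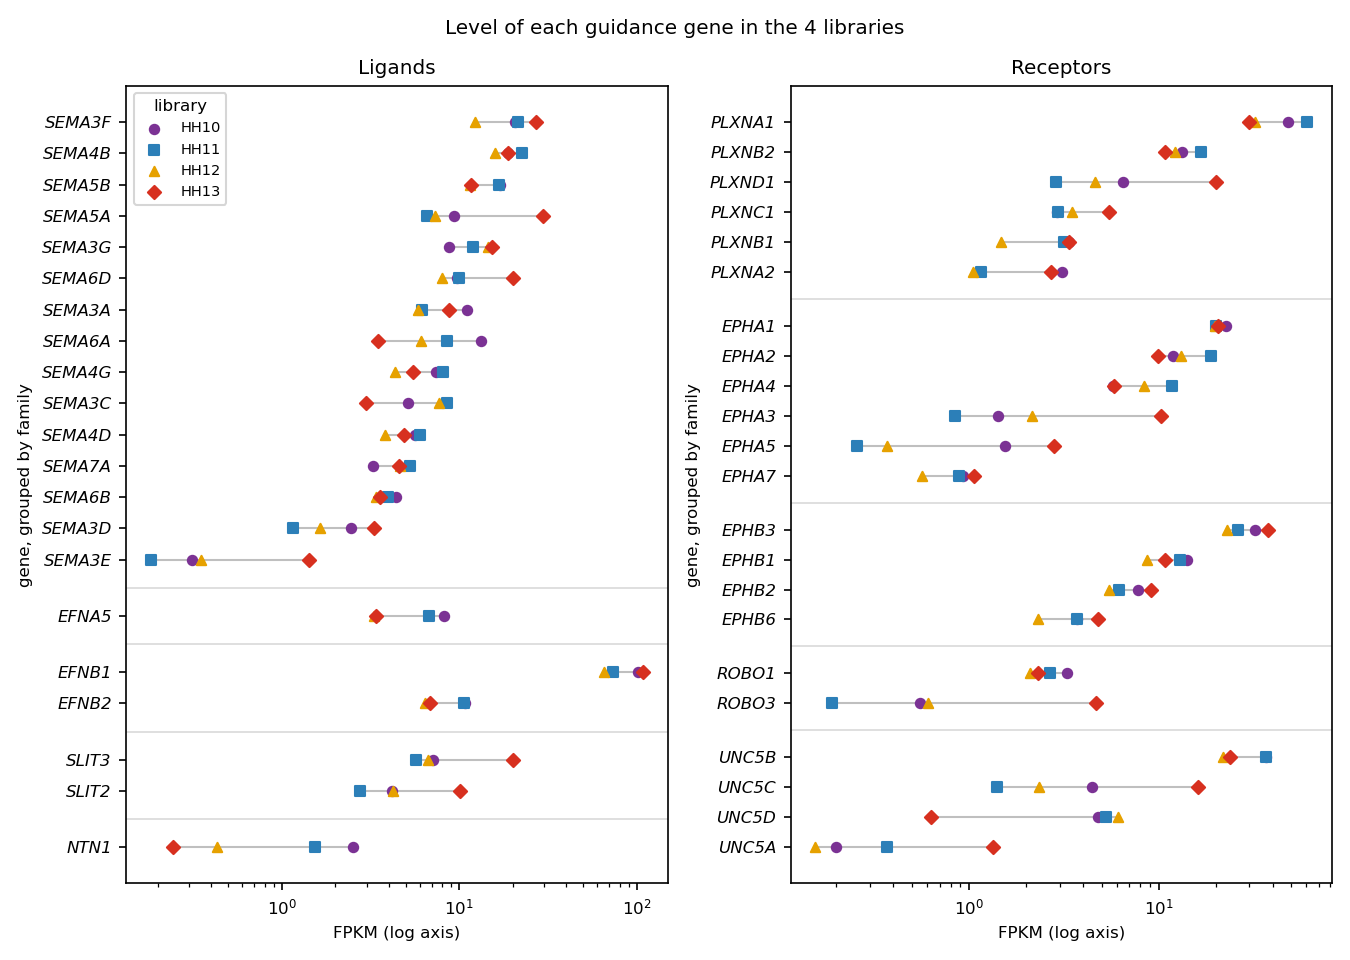
Level of each of the 43 guidance genes that reached 1 FPKM, ligands on the left and receptors on the right, on a log axis of FPKM with 1 symbol per library. EFNB1 and PLXNA1 lie farthest right, and the orange HH12 symbol is the leftmost one for 22 of the 43 genes, where 18.2% of all genes tested were lowest in HH12.

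The class 3 semaphorins are secreted. SEMA3F, which acts through NRP2, had 20.5, 21.4, 12.3 and 26.9 FPKM, so HH12 was the low library and HH13 the high one. SEMA3G, a semaphorin made by arterial endothelium in the mouse, had 8.80, 11.9, 14.5 and 15.4 FPKM and was higher at every step, 1 of 2 members that were, where 5.75% of all genes tested were. SEMA3A, the founding repellent of the class, had 11.1, 6.13, 5.85 and 8.79 FPKM. SEMA3A was therefore highest in HH10 and nearly level between HH11 and HH12. SEMA3C, a ligand of both neuropilins needed for the cardiac outflow tract in the mouse, had 5.11, 8.57, 7.69 and 2.997 FPKM. It was highest in HH11, and its HH13 value lay below all others. SEMA3D had 2.46, 1.16, 1.63 and 3.31 FPKM. SEMA3E, which binds PLXND1 without a neuropilin in the mouse, had 0.311, 0.183, 0.351 and 1.42 FPKM, passing 1 FPKM in HH13 alone.

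Neuropilins are the co-receptors of this class. NRP2 had 45.6, 46.8, 39.4 and 103 FPKM, a log2 difference of 1.36 from HH12 to HH13. NRP1 had 10.6, 3.87, 3.49 and 13.9 FPKM, with low values in HH11 and HH12 and a log2 difference of 1.73 at the last step. The 6 class 3 semaphorins summed to 48.3, 49.4, 42.3 and 58.8 FPKM and the 2 neuropilins to 56.1, 50.6, 42.9 and 117 FPKM. The ratio of ligand to neuropilin was 0.860, 0.975, 0.987 and 0.504, so HH13 had the most neuropilin per ligand.

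Class 5 and class 6 semaphorins cross the membrane. SEMA5A, a transmembrane semaphorin with thrombospondin repeats, lies on chromosome 2 at 78760824 to 78897005 of build galGal4 and had 9.31, 6.61, 7.28 and 29.5 FPKM. Its first 3 values lay close together and the HH13 value lay above them, with a log2 difference of 1.88 from HH12. Its close relative SEMA5B had 16.96, 16.6, 11.4 and 11.7 FPKM and was lower in the later pair of libraries. SEMA6D, a ligand of class A plexins, had 9.66, 9.93, 7.95 and 20.03 FPKM, while SEMA6A, another such ligand, had 13.3, 8.56, 6.05 and 3.46 FPKM and was lower at every step. SEMA6A lies on chromosome Z, at 72384249 to 72497040. Its log2 difference of -1.68 between HH13 and HH10 compares with the Z median of -0.47, and against HH11 in place of HH10 it was -1.10, where the Z median was near 0.

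Class 4 semaphorins also cross the membrane. SEMA4B had 18.8, 22.7, 15.9 and 18.9 FPKM. SEMA4D, a ligand of PLXNB1, had 5.61, 6.03, 3.80 and 4.87 FPKM, and SEMA4G had 7.39, 8.07, 4.34 and 5.50 FPKM. All 3 had their lowest value in HH12 and their highest in HH11. SEMA4D lies on chromosome Z. SEMA7A, held in the membrane by a lipid anchor, had 3.27, 5.26, 4.63 and 4.56 FPKM and was lowest in HH10. SEMA6B had 4.38, 3.98, 3.39 and 3.57 FPKM, and SEMA6C stayed under 0.4 FPKM in each library.

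Among plexins, PLXND1 and PLXNA1 had opposite courses. PLXND1, the endothelial plexin that receives SEMA3E, lies on chromosome 12 at 19511694 to 19575586 and had 6.51, 2.87, 4.63 and 20.01 FPKM. The HH11 value was the low one and the HH13 value the high one, with a log2 difference of 1.90 from HH12 to HH13. PLXNA1 was highest in HH11 and had its lowest value in HH13, with a log2 difference of -1.003 between them. As a share of the family's summed level, PLXNA1 made up 62.1%, 69.1%, 58.4% and 41.2%. PLXNB2 had 13.2, 16.7, 12.2 and 10.7 FPKM, again highest in HH11 and lowest in HH13. PLXNB1 had 3.36, 3.18, 1.47 and 3.38 FPKM and PLXNA2 had 3.10, 1.15, 1.05 and 2.69 FPKM, both with HH12 as the low library. The PLXNB1 locus also holds other expressed rows, so its values are uncertain. PLXNC1, the receptor of SEMA7A, had 2.896, 2.93, 3.48 and 5.45 FPKM and was higher at every step. PLXNA4 stayed under 0.3 FPKM.

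Ephrins came next. A-type ephrins are held by a lipid anchor and B-type ephrins cross the membrane. EFNB1 was lower in HH11 and HH12 than in HH10 and HH13. EFNB2, the ephrin that marks arterial endothelium in mouse and chick, had 10.8, 10.6, 6.45 and 6.82 FPKM and differed by -0.64 on the log2 scale at the second step. EFNB2 thus did not share the upward last step of EFNB1. EFNA5, the A-type ephrin found by the rule, had 8.15, 6.75, 3.30 and 3.39 FPKM. EFNA5 lies on chromosome Z at 47870992 to 48073238, and its log2 difference was -1.06 against HH10 and -0.82 against HH11, where the Z medians were -0.47 and near 0.

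EphB receptors bind B-type ephrins. EPHB3 had 32.2, 26.0, 23.0 and 37.4 FPKM, EPHB1 had 14.1, 12.9, 8.71 and 10.8 FPKM and EPHB2 had 7.81, 6.15, 5.47 and 9.06 FPKM. EPHB6, which lacks kinase activity, had 3.72, 3.69, 2.30 and 4.81 FPKM. Each of the 4 was lowest in HH12, as were EFNB1 and EFNB2, and for EFNB2 the HH12 and HH13 values lay close together. The summed B-type ephrins had 113, 83.6, 71.4 and 115 FPKM and the summed EphB receptors 57.8, 48.8, 39.5 and 62.1 FPKM. Their ratio stayed between 1.71 and 1.95 in the 4 libraries.

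EphA receptors differed among themselves. EPHA1 had 22.7, 19.9, 19.9 and 20.6 FPKM, with the 4 libraries close together. EPHA2, an Eph receptor of epithelia and endothelium, had 11.9, 18.9, 13.0 and 9.95 FPKM, and EPHA4, which takes both ephrin classes, had 5.77, 11.7, 8.33 and 5.78 FPKM. EPHA2 and EPHA4 were both highest in HH11. EPHA3 lies on chromosome 1 at 88543354 to 88765491 and had 1.42, 0.841, 2.15 and 10.3 FPKM, the largest log2 difference of any member between HH13 and HH10 at 2.22. EPHA5 had 1.54, 0.256, 0.369 and 2.80 FPKM and was low in HH11 and HH12. EPHA7 had 0.924, 0.886, 0.568 and 1.07 FPKM. The low receptors EPHA6, EPHA8 and EPHA10 never reached 0.4 FPKM. In whole steps the EPHA8 values equal 1, 1, 2 and 1 fragments and those of EPHA6 equal 2, 2, 1 and 1, the smallest whole numbers that match within 0.04. EPHA10 in HH10 equals 11 fragments by the same reading and 1 or 2 in the later libraries.

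Slits were low in HH11 and high in HH13. SLIT3 lies on chromosome 13 at 3574865 to 4046215 and had 7.12, 5.72, 6.68 and 20.1 FPKM. SLIT2 lies on chromosome 4 at 74557149 to 74802699 and had 4.17, 2.77, 4.21 and 10.1 FPKM. Both were at least 2-fold higher in HH13 than in each other library. SLIT2 was not so against HH10 once each library was scaled to an equal FPKM total. With a pseudocount of 5 it was not so against any other library. In all 4 libraries the SLIT3 level was above that of SLIT2. Each of these loci also holds a row for a microRNA of the miR-218 family, listed at 0 in all 4 libraries.

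Robo receptors, through which Slits repel or steer cells, had lower levels. ROBO1 had 3.27, 2.68, 2.10 and 2.30 FPKM. ROBO3 had 0.554, 0.190, 0.609 and 4.69 FPKM and replaced ROBO1 as the highest Robo in HH13. ROBO4, the Robo of endothelium, had 0.218, 0.224, 0.165 and 0.838 FPKM, which equals 6, 9, 5 and 27 fragments as the smallest whole numbers that match. The loci of ROBO4 and ROBO3 lie 965 bases apart on chromosome 24, so how the authors' quantification divided fragments between them is uncertain. ROBO2 had 0.911, 0.612, 0.325 and 0.795 FPKM. Summed Slits were 2.28, 2.29, 3.40 and 3.49 times the summed Robo receptors, highest in the later pair of libraries.

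Netrin transcripts were scarce, whereas their receptors were not. NTN1, the secreted netrin-1, lies on chromosome 18 at 2020996 to 2066954 and had 2.52, 1.54, 0.434 and 0.244 FPKM, lower at every step. NTN3 had 0.557 FPKM in HH10 and was at or under 0.0307 FPKM later, and NTN4, a netrin related to laminin, had 0.0797, 0.1004, 0.157 and 0.261 FPKM. UNC5B, the netrin receptor of vessels, lies on chromosome 6 at 11331410 to 11360275 and had 36.6, 36.5, 21.8 and 23.7 FPKM. Its values fall into a higher HH10 and HH11 pair and a lower HH12 and HH13 pair. UNC5C lies on chromosome 4 at 58208189 to 58447378 and had 4.46, 1.41, 2.35 and 16.05 FPKM, with a log2 difference of 2.35 at the last step, the largest of the 43. UNC5D, on chromosome 22 at 1850667 to 1902149, had 4.78, 5.25, 6.11 and 0.628 FPKM and was far lower in HH13, with a log2 difference of -2.13 at that same step. UNC5A had 0.198, 0.370, 0.155 and 1.33 FPKM. The ratio of summed netrin to summed UNC5 was 0.0687, 0.0382, 0.0194 and 0.0128. Of the other netrin receptors, neogenin (NEO1) had 10.9, 6.80, 5.57 and 11.1 FPKM, and DCC was not analysed here.

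Set stage by stage, the last step held most of the larger differences. Between HH12 and HH13, 11 of 43 members were at least 2-fold higher in HH13, where 8.53% of all genes tested were, and 2 were at least 2-fold lower, where 2.95% were. The higher members were UNC5C, PLXND1, SEMA5A, EPHA3, ROBO3, EPHA5, SLIT3, SEMA6D, SLIT2, SEMA3F and UNC5A, and the lower ones UNC5D and SEMA3C. The median log2 difference was 0.40 over the members and 0.00 over all genes, and 34 of 43 members lay above 0, against 5828 of 11773 genes. EPHA7, ROBO3, SEMA3E and UNC5A, 4 in all, passed the 1 FPKM filter in HH13 alone, as did 395 of all 11773 genes tested, and 2 of the 11 are among them. With a pseudocount of 5 in place of 1, 5 of the 11 remained, UNC5C, PLXND1, SEMA5A, EPHA3 and SLIT3, and 0 of the lower ones. Without a filter 11 of 52 members were higher, against 5.9% of 17012 genes, and 2 lower, against 2.04%. These counts could not change, as genes under 1 FPKM in every library cannot be 2-fold apart on this scale. At the low end of the call, UNC5A had a log2 difference of 1.01 and SEMA3F of 1.07, and the nearest members outside it were PLXNA2 at 0.85 and SEMA3E at 0.84. At this step all 17 endothelial markers were higher in HH13, 13 of them by 2-fold or more, as were 7 of 10 mural and mesoderm and 5 of 8 arterial markers. So were 10 of 13 yolk sac endoderm, 6 of 8 erythroid, 4 of 6 venous, 3 of 4 somite, 3 of 8 neural, 2 of 5 macrophage, 1 of 9 cardiac and 0 of 10 ectoderm and epithelium markers. EFNB2 and UNC5B, left out of the arterial list as members, had log2 differences of 0.07 and 0.12. The part of the markers in the 11 members was not tested.

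**Figure D2:**
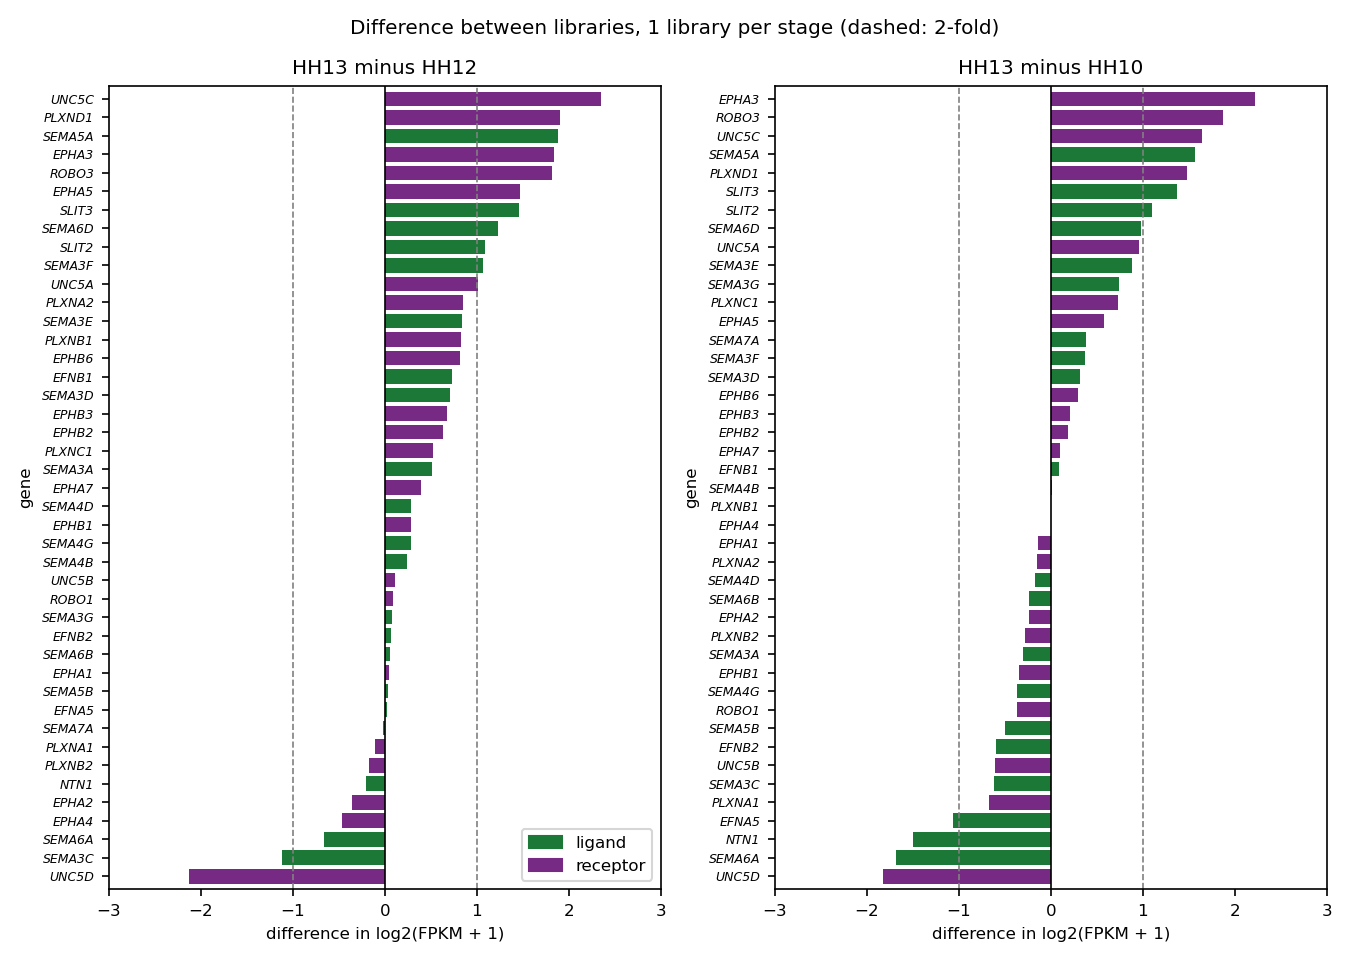
Difference in log2(FPKM + 1) of the 43 guidance genes, HH13 minus HH12 on the left and HH13 minus HH10 on the right, 1 bar per gene, green for ligands and purple for receptors, with dashed lines at 2-fold. UNC5C has the longest bar to the right at the last step and UNC5D the longest to the left in both panels.

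Against the first stage, 7 of 43 members were at least 2-fold higher in HH13, where 9.39% of all genes tested were, and 4 were at least 2-fold lower, where 4.06% were. The 7 were EPHA3, ROBO3, UNC5C, SEMA5A, PLXND1, SLIT3 and SLIT2, and all of them are among the 11 of the last step. ROBO3 passed the 1 FPKM filter in HH13 alone. The 4 lower ones were UNC5D, SEMA6A, NTN1 and EFNA5, of which SEMA6A and EFNA5 lie on chromosome Z. With a pseudocount of 5, SEMA6A was the 1 that remained of the 4 lower ones, and ROBO3 and SLIT2 were lost from the 7 higher ones. SLIT2 was also lost when the libraries were set to the same total. The median log2 difference was 0.01 over the members and 0.00 over all genes. Above 0 lay 24 of 43 members and 5862 of 11773 genes, which are near each other as shares. Without a filter, 7 of 52 members were higher, against 6.5% of genes, and 4 lower, against 2.81%, counts that again could not change. Against HH11 in place of HH10, 9 members were at least 2-fold higher, where 13.1% of genes were. Lower by as much were 5, where 5.39% were. ROBO3 and SEMA3E, among the 9, passed the filter in HH13 alone. HH12 set against HH10 gave 0 higher members, where 2.55% of genes were, and 3 lower, where 2.6% were, namely NTN1 at -1.30, EFNA5 at -1.09 and SEMA6A at -1.02.

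The earlier steps were smaller. Between HH10 and HH11, 0 of 43 members were at least 2-fold higher, where 2.17% of genes were, and 2 were at least 2-fold lower, UNC5C and EPHA5, where 4.32% were. The log2 differences of these were -1.18 and -1.02. Between HH11 and HH12, 0 members were 2-fold apart in either direction, where 4.42% of genes were higher and 1.58% lower. The members nearest to it were PLXNA1 at -0.89, EFNA5 at -0.85 and NTN1 at -0.82. At this step 13 of 43 members lay above 0, with a median of -0.18, against 5906 of 11773 genes and a median of 0.00.

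Low values in HH12 were common in these families. Of the 43 members, 22 had their lowest level in HH12, where 18.2% of all genes tested did. EPHA7 and UNC5A, among the 22, passed the 1 FPKM filter in HH13 alone. The 22 include 11 ligands and 11 receptors, among them all 6 B-type ephrins and EphB receptors, 8 of 15 semaphorins, 2 of 6 plexins and 2 of 6 EphA receptors. With all libraries set to the same total FPKM apart from globins and ribosomal RNA, the count was 20, where 19.6% of genes were lowest in HH12. The gaps were mostly small. From HH12 to the next lowest library the ratio ran from 1.00 for EPHA1 to 2.16 for PLXNB1, with a median of 1.13, and over all genes lowest in HH12 and above 0 the median was 1.14. SEMA3F at 1.67, EPHB6 at 1.60 and EPHA7 at 1.56 followed PLXNB1. Of the 61 intracellular effectors listed below, 23 were lowest in HH12 too. So were 9 of 26 co-receptors and other guidance ligands or receptors and 2 of 11 proteases. Among markers these were 2 of 17 endothelial, 4 of 8 arterial, 1 of 6 venous, 4 of 8 neural and 3 of 9 cardiac. The counts were 1 of 4 somite, 1 of 5 macrophage and 2 of 10 ectoderm and epithelium markers. They were 0 of 8 erythroid, 0 of 10 mural and mesoderm and 0 of 13 endoderm markers. The part of other cell types in this count was not tested.

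A second course was low in HH11 and high in HH13. All 10 members with their lowest level in HH11 had their highest in HH13, namely SEMA3D, SEMA3E, SEMA5A, PLXND1, EPHA3, EPHA5, SLIT2, SLIT3, ROBO3 and UNC5C. Most genes lowest in HH11 did the same, 2104 of 3096 over all genes tested. The 10 members are 23.3% of the 43, near the 17.9% of all genes tested with this course. ROBO3 and SEMA3E, 2 of the 10, passed the 1 FPKM filter in HH13 alone. In the endothelial list 14 of 17 markers were lowest in HH11 and 17 of 17 highest in HH13, and in the mural and mesoderm list 8 of 10 were lowest in HH11 and 8 of 10 highest in HH13. The same held for 8 of 8 and 8 of 8 erythroid markers, and for 11 of 13 and 11 of 13 yolk sac endoderm markers. Lowest in HH11 and highest in HH13 were 4 and 7 of 8 arterial and 3 and 5 of 6 venous markers. The same counts were 3 and 2 of 4 somite, 2 and 2 of 8 neural and 2 and 1 of 9 cardiac markers. For macrophage markers they were 2 and 4 of 5, and for ectoderm and epithelium markers 2 and 5 of 10. EFNB2 and UNC5B also mark arteries but were left out of that list as members. Both were highest in HH10 and lowest in HH12. CDH5, which joins endothelial cells to each other, had 21.4, 7.25, 13.8 and 40.9 FPKM, and LUM, a proteoglycan of connective tissue, had 5.47, 2.63, 20.1 and 164 FPKM. Their part in the 10 courses was not tested. Of the members left, 4 were highest in HH11 and lowest in HH13 (SEMA3C, PLXNA1, PLXNB2 and EPHA2), a course that 17.4% of all genes tested had. UNC5D was the sole member highest in HH12, where 19.5% of genes were. Only 7 of 43 members were lowest in HH13, where 34.8% of genes were. Those lower at every step were SEMA6A and NTN1, 2 of 43, where 5.29% of genes were.

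HH10 was the high library for 12 members, 27.9% of the 43, where 18.4% of all genes tested were highest in it. One of them, UNC5B, had nearly the same value in HH11, and its log2 difference between HH11 and HH10 of -0.002 became 0.014 when the libraries were set to the same total. SEMA6A and EFNA5, also among the 12, lie on chromosome Z. The median log2 difference of HH10 from the mean of the later libraries was 0.49 over Z genes and -0.03 over genes on numbered chromosomes. In 10 of the 12, HH12 was the lowest, a course that 5.89% of genes had. In 9 further members HH12 was lowest and HH13 highest, where 6.67% of genes were. EPHA7 and UNC5A, among the 9, passed the 1 FPKM filter in HH13 alone. Markers of embryonic tissue next to the area vasculosa were partly highest in HH10 as well. These were 7 of 9 cardiac markers, with sums of 165, 104, 80.4 and 90.0 FPKM, and 5 of 8 neural markers, with sums of 51.4, 32.9, 31.1 and 76.3 FPKM. TUBB3, a tubulin of neurons, had the largest part in the neural sum with 30.0, 23.4, 27.6 and 63.9 FPKM. OTX2, a marker of anterior brain, had 2.54, 1.82, 0.530 and 0 FPKM. SOX2, a marker of the neural plate, had 4.16, 0.856, 0 and 1.24 FPKM. TUBB3 and DCX of the same list were highest in HH13, and DCX reached 1 FPKM in HH13 alone. Of 9 somite markers, 5 stayed under 1 FPKM in every library. Of the other 4, 2 were highest in HH10 and 2 in HH13, and of these MEOX2 reached 1 FPKM in HH13 alone. Sums over all 9 were 9.85, 1.08, 2.46 and 9.44 FPKM. The part of these markers, or of the chromosome Z difference, in the 12 members was not tested.

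**Figure D3:**
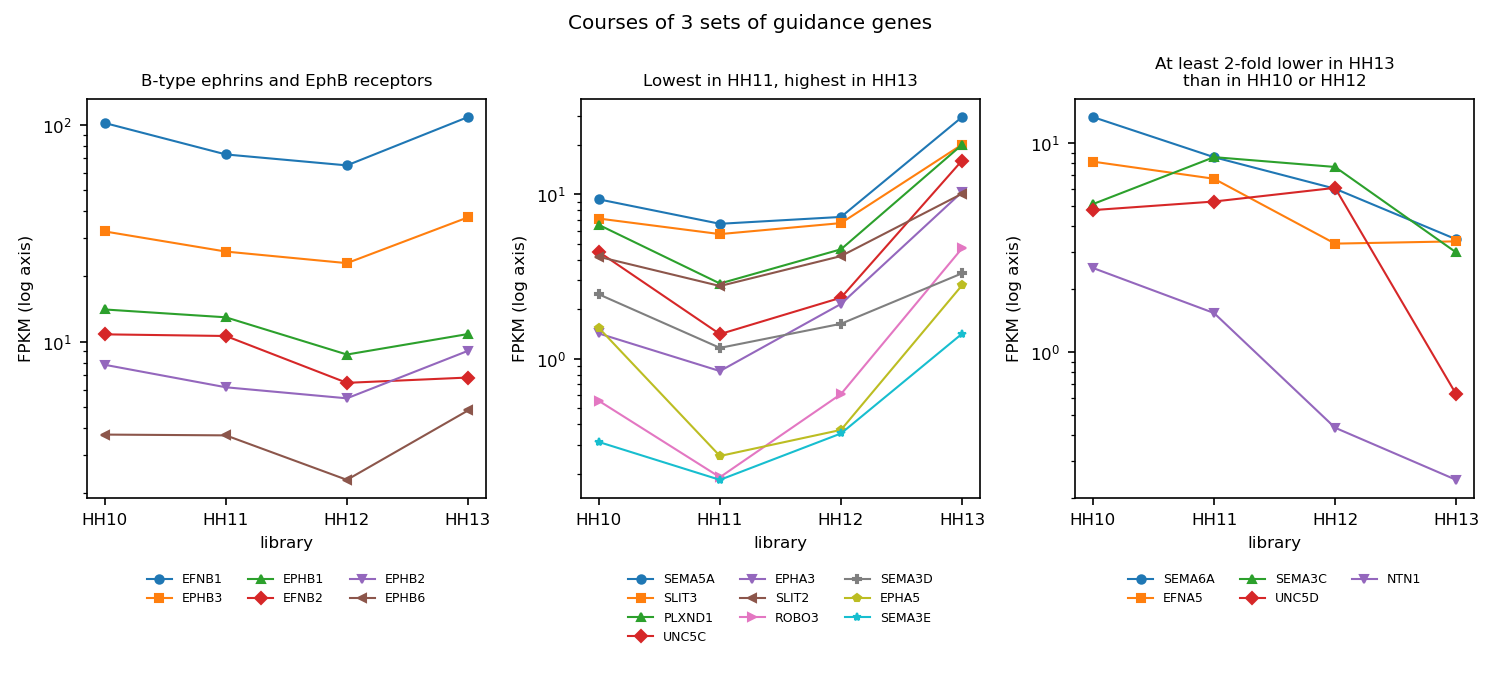
FPKM on a log axis in the 4 libraries, 1 line per gene, for the B-type ephrins and EphB receptors (left), the 10 genes lowest in HH11 and highest in HH13 (middle), and the 5 genes whose HH13 value lay below that of HH10 or HH12 by 2-fold or more (right). All 6 lines on the left reach their lowest point in HH12, and UNC5D on the right keeps its level until HH12.

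Ligands and receptors were then taken as 2 classes. At the last step 5 of 21 ligands and 6 of 22 receptors were at least 2-fold higher, where 8.53% of all genes were, and 1 of each class was lower by as much, where 2.95% were. The medians were 0.28 and 0.58. Against HH10, 3 of 21 ligands and 4 of 22 receptors were higher, where 9.39% of all genes were. By as much, 3 ligands and 1 receptor were lower, where 4.06% were. ROBO3 and UNC5A, among the 6 receptors higher at the last step, passed the 1 FPKM filter in HH13 alone. ROBO3 is also among the 4 receptors higher than in HH10, so these receptor counts lean on the library that is high. The medians against HH10 were 0.01 and 0.06. Summed ligands had 272, 238, 194 and 311 FPKM and summed receptors 231, 236, 173 and 235 FPKM, a ratio of 1.18, 1.01, 1.12 and 1.32. Ratios within pairs of families are given next. EFNA5 to summed EphA receptors had ratios of 0.183, 0.129, 0.0744 and 0.0669, and semaphorin to plexin 1.77, 1.56, 1.95 and 2.23. SEMA3E and its receptor PLXND1 were both lowest in HH11 and highest in HH13, and so were SLIT2, SLIT3 and ROBO3. Of all genes tested, 17.9% had this course, and SEMA3E and ROBO3 passed the 1 FPKM filter in HH13 alone. Other pairs differed, as ROBO1 was highest in HH10. SEMA7A was highest in HH11, and its receptor PLXNC1 in HH13. SEMA4D was also highest in HH11, but it and its receptor PLXNB1 were both lowest in HH12. The first and last libraries were nearly equal for PLXNB1, at 3.36 and 3.38 FPKM, and its values are uncertain, as stated above. NTN1 was highest in HH10, and UNC5B was about level between HH10 and HH11.

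**Figure D4:**
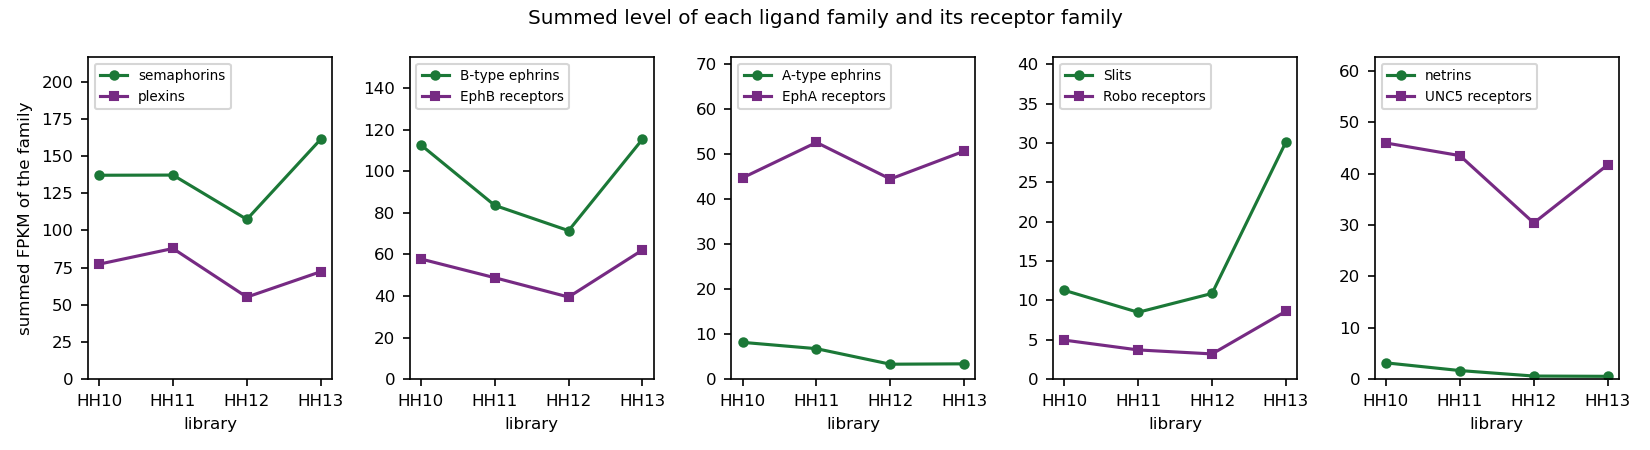
Summed FPKM of each ligand family (green circles) and of the receptor family it acts on (purple squares) in the 4 libraries, each panel with its own axis from 0. B-type ephrins and EphB receptors run parallel with HH12 lowest, Slits reach 30.1 FPKM in HH13, and netrins stay under 4 FPKM beside UNC5 receptors above 30 FPKM.

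Neighbouring parts of the pathway were read from further lists. Of 33 measured co-receptors and other guidance ligands or receptors, 26 reached 1 FPKM. In 3 of the 26 (NRP1, NRP2 and LINGO1) HH13 exceeded HH12 by 2-fold or more, where 8.53% of all genes did. HH13 was lower by as much in LRIG1 and SDC3, where 2.95% of all genes were. The median log2 difference was 0.07. LRIG1, a leucine-rich membrane protein that restrains growth factor receptors, had 43.6, 62.2, 40.8 and 4.50 FPKM. SDC3, a heparan sulphate proteoglycan, had 22.6, 24.2, 16.6 and 5.51 FPKM. LINGO1 had 3.12, 1.88, 2.01 and 7.05 FPKM. KDR, also in the endothelial list, had 6.48, 1.97, 3.74 and 8.25 FPKM, with a log2 difference of -1.33 between HH11 and HH10. FLRT2 and FLRT3 are ligands of UNC5 receptors. FLRT2 had 2.38, 1.93, 4.24 and 9.24 FPKM and FLRT3 had 30.3, 29.1, 29.1 and 14.4 FPKM, so these relatives ran in opposite directions at the last step. DRAXIN, a netrin-binding repellent first found in chick, had 10.7, 10.8, 8.19 and 4.45 FPKM.

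Intracellular effectors carry the signal to the cytoskeleton. At the last step 2 of 61 were higher by 2-fold or more and 1 was lower by as much, where 8.53% and 2.95% of all genes were. The median log2 difference was 0.09. MICALL2, a relative of the plexin effector MICAL, had 3.17, 2.61, 2.29 and 8.81 FPKM, and SH2D3C, an Eph receptor adaptor of blood and endothelial cells, had 4.43, 3.54, 4.11 and 12.9 FPKM. LIMK2, a kinase that acts on cofilin, had 84.4, 108, 71.2 and 28.8 FPKM. RND2, a plexin-binding GTPase, had 31.2, 35.3, 18.8 and 12.9 FPKM, and EVL, an actin regulator of the Ena family, had 20.4, 26.1, 30.8 and 47.6 FPKM. Among 11 proteases that cut guidance proteins, MMP2 had 4.36, 1.98, 4.81 and 14.8 FPKM and MMP9 had 0.818, 0.659, 0.486 and 2.37 FPKM. These 2 were at least 2-fold higher in HH13 than in HH12, where 8.53% of all genes were. Lower by as much were 0, where 2.95% of all genes were.

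Slopes of log2(FPKM + 1) with stage number were fitted to find members that changed steadily. limma with Benjamini-Hochberg adjustment called 0 of 43 members and 0 of 11773 genes, which is 0% of those tested, with a smallest adjusted p of 0.523. At an unadjusted limma p under 0.05 there were 5 members, 11.6% of the 43, near the 9.44% of all genes. These were SEMA6A, NTN1, EFNA5, EPHA3 and SEMA3G. Their slopes were -0.55 (SE 0.09), -0.53 (SE 0.15), -0.40 (SE 0.12), 0.75 (SE 0.25) and 0.25 (SE 0.09) log2 units per stage. SEMA6A and EFNA5 lie on chromosome Z, whose median log2 difference between HH13 and HH10 was -0.47. Without the HH10 library, 3 of 43 members were called, and 844 of 11773 genes, which are near each other as shares. That fit keeps 1 residual degree of freedom. The members were EPHA3, PLXND1 and UNC5C, with slopes of 1.31, 1.22 and 1.41 log2 units per stage. With 1 library per stage, the error in these fits is departure from a straight line, not spread between embryos. In the authors' own tests, between HH10 and HH11, HH10 and HH12, HH10 and HH13, HH11 and HH12, and HH12 and HH13, the authors' deposited table called 0 of 52 members at a q-value under 0.05, where 0.245%, 0.234%, 0.655%, 0.123% and 0.333% of rows were called. The authors' deposited table gave 1 member a q-value under 0.05 in any of its 6 pairs of stages, PLXND1 between HH11 and HH13, with a q of 0.0109, where 1.16% of rows were called. For EPHA3 the authors' deposited table gave q of 0.0585 between HH10 and HH13, 0.0585 between HH11 and HH13, and 0.0794 between HH12 and HH13. For PLXND1 the authors' deposited table gave q of 0.0669 between HH12 and HH13.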

How the data were processed

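Members and gene lists were chosen with earlier results of these data known. RNA of 4 libraries, 1 per stage, was sequenced on an Illumina HiSeq 2000, and TopHat2 2.0.8, Cufflinks, Cuffdiff and build galGal4 are named in the submitters' processing notes. The deposited table holds FPKM per gene and library and, per the file headers, the authors' p-value and q-value for each pair of stages. A count test was not used, since FPKM is not a count. Loci are the authors', with starts printed 1 higher, as Cufflinks loci count from 0. The loci of PLXNB1 and SEMA6C also hold other expressed genes and are not printed.

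Rows of 1 symbol were summed (77 symbols), and rows without a symbol kept their Ensembl identifiers. The filter kept genes that reached 1 FPKM somewhere, and the pseudocount was 1. limma 3.58.1 in R 4.3.3 fitted the stage trend (eBayes with trend, two-sided, 2 residual degrees of freedom) over all genes, tested on simulated data. Of 100 simulated slopes of 2 and 100 of 1 log2 units per stage, 99 and 96 were called, as were 22 genes without a slope. The simulated noise was independent with the moderated spreads, and slopes were planted in genes with a mean log2 value above 2. These counts therefore do not give the power of the fit in the real data, where 0 of 11773 genes were called. Python 3.11.15, pandas 2.3.3, numpy 2.4.6 and matplotlib 3.10.9 did the rest. The worth of 1 fragment was the commonest ratio between libraries among rows under 0.5 FPKM in HH10, and of 79 rows above 0 in all libraries and under 0.1 FPKM, 78 came out whole within 0.04 of a fragment. Named genes are members reaching 5 FPKM, and others as examples with all 4 values. Also named are list genes reaching 5 FPKM and at least 2-fold apart, plus neuropilins, neogenin, MMP9 and marker examples. The marker and effector lists leave out members. Counts over these lists cover genes that reached 1 FPKM in at least 1 library, and sums cover all measured genes of a list. Alternatives were pseudocounts, filters, scalings, row choice, left-out stages or chromosomes, robust eBayes and a 1.5-fold call. Protein, promoter and genome sequences were not used here.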

Additional observations from a re-analysis of the deposited data

How the results depend on the processing

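Counts of members at least 2-fold apart kept within 1.5 times under median-of-ratios scaling and the same total FPKM. The last moved the median of all genes by -0.11 between HH10 and HH13. Dropping the filter or taking the highest row per symbol could not change these counts. Genes under 1 FPKM throughout cannot be 2-fold apart with a pseudocount of 1, and each member has a single row. The pseudocount had more effect. With a pseudocount of 0.1, HH11 against HH10 gave 1 higher and 6 lower and HH12 against HH11 gave 2 and 3. With a pseudocount of 5, 0 were lower at the first step, 5 were higher and 0 lower at the last, and 1 was lower for HH13 against HH10. A filter of 5 FPKM left 1 lower at the first step. A 1.5-fold call gave 3 higher and 6 lower at the first step, then 1 and 8 between HH11 and HH12, 19 higher at the last, and 12 and 8 for HH13 against HH10. Without chromosome Z, W and unplaced scaffolds, 2 were lower for HH13 against HH10. The stage trend called 3 members without the HH10 library and 0 without any other stage. Among members reaching 5 FPKM, no difference of 2-fold or more changed direction. That is no check of direction, since a pseudocount or filter cannot change it. Row choice left the members unchanged, and the scalings shifted medians by far less than 2-fold. No paired analysis was possible because each stage has 1 library. Values near 0.1 FPKM rest on few fragments. Counts of members lowest in HH12 or highest in HH13 were set against other scalings after the data were seen.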
